A study of Mus musculus with 3 samples.

Results

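The costimulatory and checkpoint genes described here are Cd274, Pdcd1lg2, Cd40, Cd80, Cd86, Cd83, Tnfrsf9, Icosl, Ctla4 and Cd200. They were taken by symbol from the gene annotation of the count matrices. All 10 were found among its 32285 genes, and each is measured in all 3 libraries.

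T cells that recognise antigen need a second signal from surface ligands of the cell that presents it, and inhibitory ligands restrain the same contact. Cd80 and Cd86 are the B7 ligands that bind the activating receptor CD28 and the inhibitory receptor CTLA-4. Cd274 and Pdcd1lg2 encode PD-L1 and PD-L2, the ligands of PD-1. Icosl binds ICOS, Cd40 is the receptor for CD40 ligand on T cells, and Tnfrsf9 encodes 4-1BB, a costimulatory receptor of the TNF receptor family. Cd83 marks mature dendritic cells and activated B cells, and Cd200 binds an inhibitory receptor found mainly on myeloid cells. In arteries, endothelial cells, macrophages and dendritic cells can all carry some of these ligands.

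The mice were C57BL/6J wild type, 12 to 13 weeks old, and 5 to 10 mice, male and female, were pooled for each library. The cells came from the inner layer of the aortic arch along its lesser curvature, a site of disturbed blood flow. One group received 30 µg of ultrapure lipopolysaccharide (LPS), a bacterial cell wall product, intravenously 18 h before harvest, and consists of 1 library. The other group was untreated and consists of 2 libraries, here called control replicates 1 and 2 in the order of their records. All groups share perfusion and dissection in actinomycin D, which blocks transcription, and digestion with collagenase D and DNase I. By its title, the study asked how sphingosine-1-phosphate bears on myeloid cells that leave the intima through the endothelium.

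The LPS library held 6000 barcodes and 21864072 unique molecular identifiers (UMIs, each standing for 1 captured transcript), against 1269 barcodes and 4940996 UMIs in control replicate 1 and 4813 and 20069697 in control replicate 2. After filtering, 5156 barcodes remained in the LPS library, 431 in control replicate 1 and 2697 in control replicate 2. The libraries stood apart in composition. Gm42418, a transcript that overlaps ribosomal RNA, took 28.6% of UMIs in the LPS library, 9.81% in control replicate 1 and 1.59% in control replicate 2, and haemoglobin genes took 25.2%, 44.0% and 7.91% in the same order. In the LPS library 3260 barcodes with at least 40% Gm42418 stayed without a class. Cell classes carry the suffix -like because they were named here from markers. Endothelial-like cells numbered 218 in the LPS library, 64 in control replicate 1 and 219 in control replicate 2, and macrophage- or monocyte-like cells 376, 80 and 209. Thymocyte-like cells, which the label of intimal cells does not name, numbered 71, 142 and 1504. The libraries shared at most 6 barcodes in any pair.

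Cd274 and Pdcd1lg2 are neighbours on chromosome 19 (GRCm38, plus strand), at chr19:29367455-29388095 and chr19:29410919-29471161, with 22824 bases between them. Tnfrsf9 lies at chr4:150914562-150946102 on the plus strand. The 250 bases before the annotated start are printed for these 3 genes because Cd274 and Tnfrsf9 rose in several cell classes, as described further on, and Pdcd1lg2 is the neighbour of Cd274. RefSeq sequences of GRCm38.p6 matched 7 of the 10 genes, and Cd40, Cd86 and Cd83 were not among them. Capitals mark letters of a searched motif, on either strand, and each sequence runs 5′ to 3′ on the plus strand.
Cd274, chr19:29367188-29367437: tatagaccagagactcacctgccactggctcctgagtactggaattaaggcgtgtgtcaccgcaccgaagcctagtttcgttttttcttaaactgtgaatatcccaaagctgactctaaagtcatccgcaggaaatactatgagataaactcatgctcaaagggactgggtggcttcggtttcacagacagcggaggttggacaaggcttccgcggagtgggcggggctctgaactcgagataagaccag
Pdcd1lg2, chr19:29410669-29410918: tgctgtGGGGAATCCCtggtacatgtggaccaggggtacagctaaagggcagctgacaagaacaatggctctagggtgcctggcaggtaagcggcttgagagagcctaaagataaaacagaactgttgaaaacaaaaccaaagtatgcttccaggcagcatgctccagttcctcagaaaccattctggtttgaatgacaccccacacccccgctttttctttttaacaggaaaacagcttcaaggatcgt
Tnfrsf9, second start site, chr4:150927749-150927998: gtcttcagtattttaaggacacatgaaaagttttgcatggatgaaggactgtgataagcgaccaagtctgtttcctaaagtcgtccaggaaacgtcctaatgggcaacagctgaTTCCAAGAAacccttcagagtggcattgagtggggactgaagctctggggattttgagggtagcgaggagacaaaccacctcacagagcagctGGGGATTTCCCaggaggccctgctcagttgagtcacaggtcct
The motifs searched were GAAA followed after 2 bases by GAAA, the core of the interferon-stimulated response element, TTCNNNGAA, the gamma-interferon activation site, and the NF-kB consensus. They occur in 2.98%, 7.02% and 3.90% of 32851 promoter windows of this length. The Pdcd1lg2 window held 1 NF-kB match, which begins 244 bases before the start. The window of the second Tnfrsf9 start site held 1 gamma-interferon activation site at 136 bases and a pair of overlapping NF-kB matches at 43 and 42 bases before the start. The printed Cd274 window and those of Cd80, the first Tnfrsf9 start site, Icosl, Ctla4 and Cd200 held none of the 3 motifs. A match is a string of letters, not a measured binding site.

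Summed over whole libraries, the 10 genes gave 10865 UMIs in the LPS library, 320 in control replicate 1 and 4916 in control replicate 2. Cd200 alone gave 7659 UMIs in the LPS library, against 203 and 4020 in control replicates 1 and 2. The genes divided by cell class. Pdcd1lg2 was counted in dendritic-like, T, B and thymocyte-like cells and in 1 endothelial-like cell. Ctla4 was counted in T, B and thymocyte-like cells, apart from 2 UMIs in Gm42418-rich barcodes of the LPS library. Cd80, Cd86 and Cd83 were counted most in macrophage- or monocyte-like cells and, with LPS, in migratory dendritic-like cells. B-like cells held fewer. Neutrophil-like LPS cells held more Cd80 UMIs than B-like LPS cells (16 against 7). In control replicate 2 thymocyte-like cells held more UMIs of each of these genes than B-like cells. Icosl was highest in endothelial-like cells of the LPS library and of control replicate 1, and about equal in endothelial-like and macrophage- or monocyte-like cells of control replicate 2. Cd200 was counted in every class of the LPS library.

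**Figure D1:**
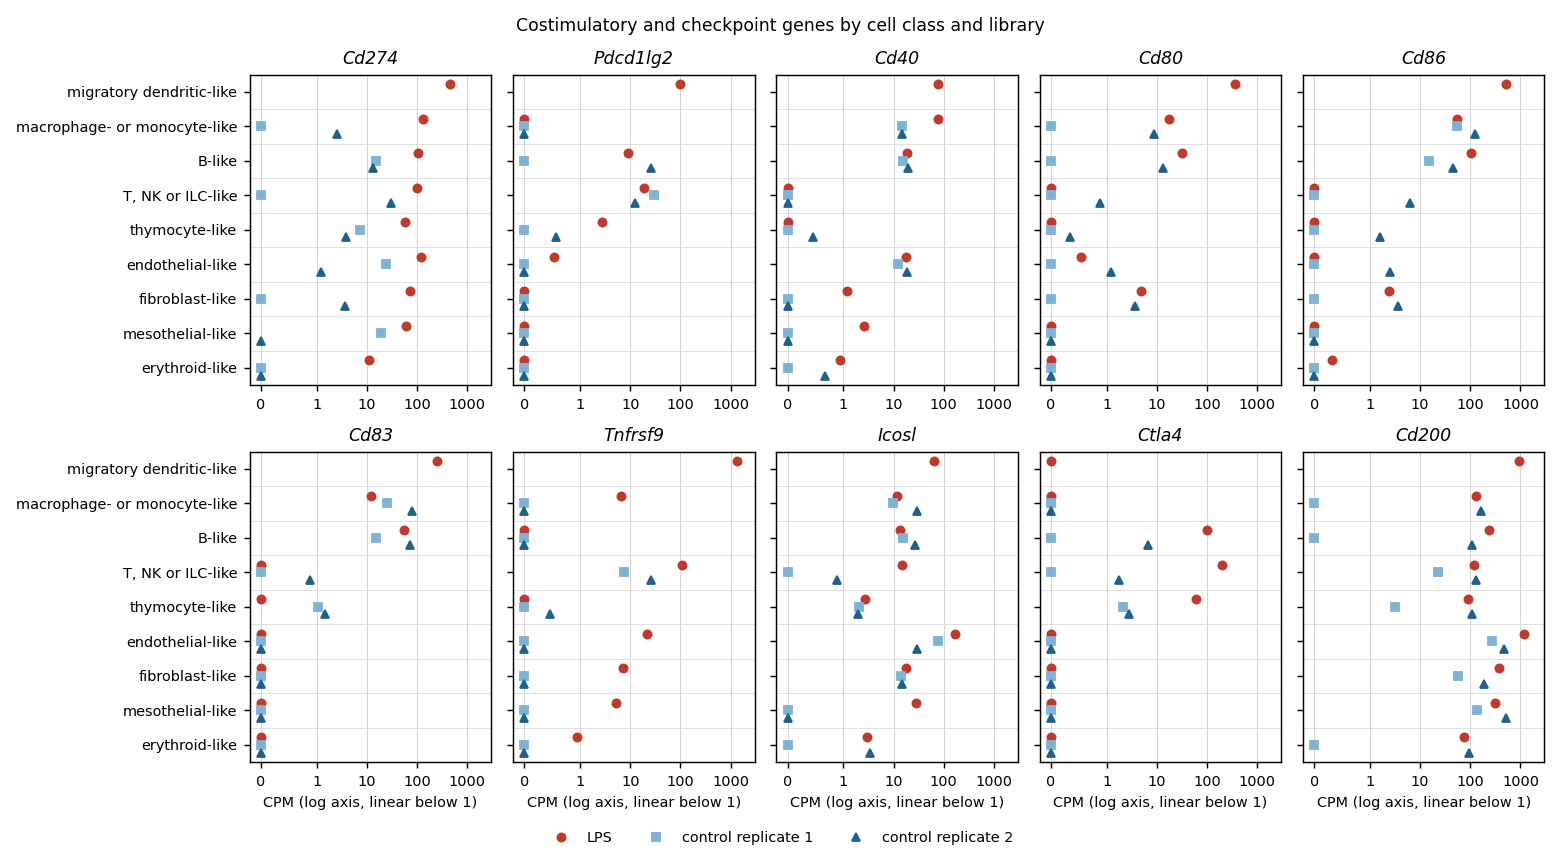
Level of each gene by cell class, as the UMIs of the gene summed over the class and given as CPM, counts per 1000000 UMIs of that class (logarithmic axis, linear below 1). Red circles are the LPS library, light squares control replicate 1 and dark triangles control replicate 2, drawn where a class had at least 6 cells. Migratory dendritic-like cells were found in the LPS library only, and Cd274 is right of both controls in every class drawn with control cells.

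The highest levels of most of these genes were carried by 7 cells of the LPS library. These migratory dendritic-like cells expressed Ccr7, the receptor that guides dendritic cells to lymph nodes, and Fscn1, an actin-bundling protein of mature dendritic cells, in all 7, and C1qa, Cd3e and Pecam1 in none. They held between 13361 and 25766 UMIs each, and control libraries yielded no such cell. The 7 cells held 207 of the 359 Tnfrsf9 UMIs of the library, 56 of 128 Cd80 UMIs, 78 of 231 Cd86 UMIs, 39 of 88 Cd83 UMIs and 15 of 24 Pdcd1lg2 UMIs. Cd274, Cd80, Cd86, Cd83, Tnfrsf9 and Cd200 were detected in each of them, and Ctla4 in none. Between 7 and 9 of the 10 genes were detected per cell.

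Tnfrsf9 was counted at 4, 10, 32, 34, 36, 39 and 52 UMIs per cell, and the lowest count fell in the cell with the fewest UMIs. Cd86 ranged over 1, 1, 8, 9, 13, 21 and 25 UMIs. Cd80 ranged over 2, 4, 6, 6, 9, 11 and 18 UMIs. The cells therefore did not share 1 order, since the cell with 52 Tnfrsf9 UMIs had 8 Cd86 and 2 Cd200 UMIs, while that with 64 Cd200 UMIs had 39 Tnfrsf9 and 21 Cd86 UMIs. As levels, Cd274 reached 443 CPM (95% Poisson interval 344 to 561), Cd80 364 CPM (275 to 473), Cd86 508 CPM (401 to 634) and Tnfrsf9 1347 CPM (1170 to 1544). With 7 cells of 1 library and none in the controls there is no test, and a share of these cells in the tissue cannot be compared between groups.

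**Figure D2:**
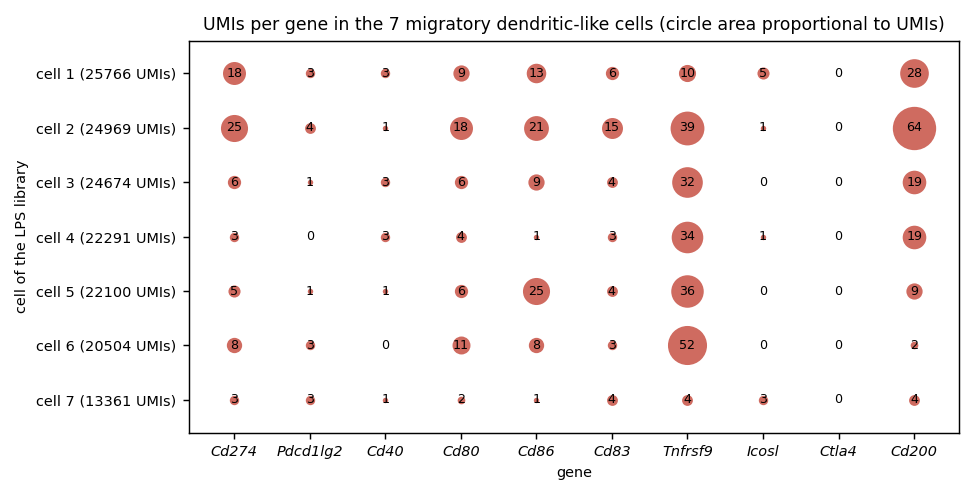
UMIs of each gene (columns) in each of the 7 migratory dendritic-like cells of the LPS library (rows, with the cell's total UMIs), where the area of a circle is proportional to the number printed on it. Tnfrsf9 varied between 4 and 52 UMIs and Ctla4 was at 0 in every cell.

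Over the cell classes with at least 20 cells in each library, UMIs were summed per library and tested with edgeR's quasi-likelihood test. In endothelial-like cells 4 of the 5 genes measured well enough to be tested rose with LPS, where 5.71% of 9274 genes rose and 5.78% fell. In macrophage- or monocyte-like cells 2 of 7 rose, where 1.63% of 8832 genes rose and 0.442% fell. In fibroblast-like cells both genes tested rose, where 8.07% of 5229 genes rose and 5.13% fell, and in T, NK or innate lymphoid-like cells 3 of 4 rose, where 3.91% of 5142 genes rose and 2.14% fell. None of the 10 genes fell in a class. A gene enters the test only with enough UMIs in at least 1 library, so the genes that could be tested are not all 10. Some entered only through the LPS library, where they are high. Among them are Cd274 in macrophage- or monocyte-like and fibroblast-like cells and Tnfrsf9 in endothelial-like cells. In lymphoid-like cells they are Cd274, Tnfrsf9 and Ctla4. For these the filter left only a rise to be found, so the counts of genes that rose do not show a direction of the 10 genes as a set.

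With 1 LPS library, treatment and library cannot be told apart, and the test takes its spread from the controls, whose difference leaves 1 residual degree of freedom. That spread is pooled over genes, so the p-value of a gene does not rest on the difference between its own controls alone. A gene whose controls differ widely, such as Cd274 in endothelial-like cells, can therefore have a small p. Nothing in the labels says that the control libraries are separate experiments beyond their pools of mice. The p-values thus rest on the pooled spread between these libraries, which may be technical. An exact permutation test of 1 library against 2 has 3 arrangements in all and cannot pass a threshold of 0.05. Of the 11 calls over the 4 classes, DESeq2 called 2, gave an adjusted p at or above 0.05 to 4 and gave no adjusted p to 5.

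**Figure D3:**
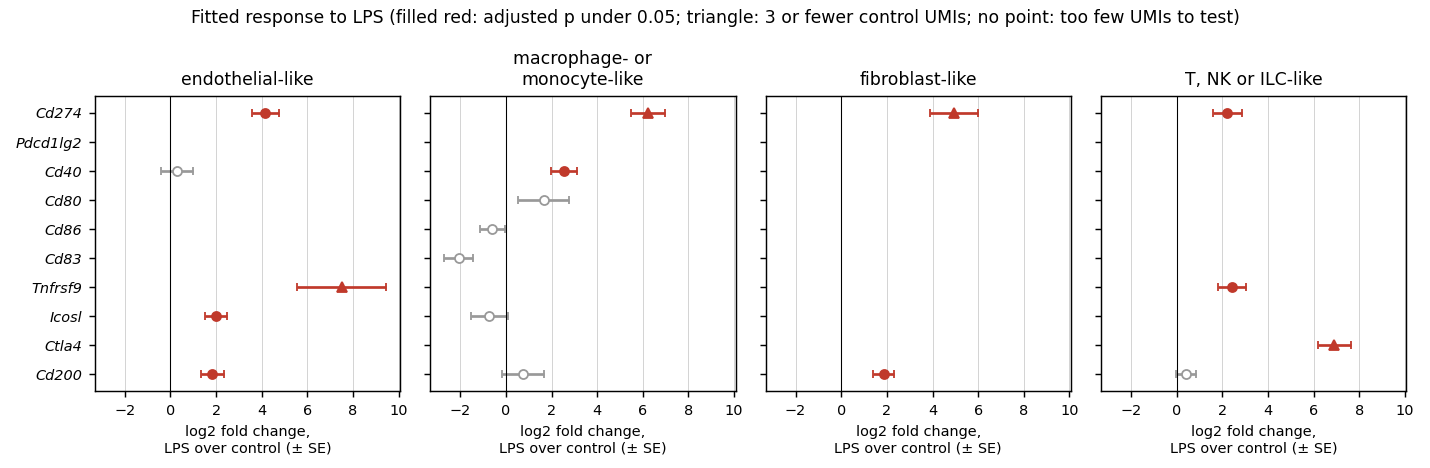
Fitted log2 fold change, LPS over control, with its standard error, for each gene that could be tested in 4 cell classes. Filled red symbols have an edgeR adjusted p under 0.05, and triangles mark genes with 3 or fewer UMIs over both controls, whose fitted value depends on the prior count and is no measure of size. Cd274 is filled in all 4 classes, and Cd83 lies left of 0 without passing.

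Cd274, the gene for PD-L1, rose in all 4 classes tested. Endothelial-like cells had 226 UMIs (122 CPM) with LPS, against 6 UMIs (24.0 CPM) in control replicate 1 and 1 UMI (1.23 CPM) in control replicate 2. The LPS value lay above both controls, which themselves differed widely. The log2 fold change was 4.16 ± 0.60 (SE), with an edgeR adjusted p of 8.70e-10. It was 6.40 without control replicate 1 and 2.40 without control replicate 2, and DESeq2 gave an adjusted p of 0.769.

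Macrophage- or monocyte-like cells had 246 Cd274 UMIs (133 CPM) with LPS, against 0 in control replicate 1 and 2 in control replicate 2 (2.50 CPM). The ratio of LPS to control was 78.3, with a 95% counting interval of 21.5 to 650, and the edgeR adjusted p was 0.00106. Within the class, a cluster with Ly6c2 and Plac8 among its leading genes is called the shared Ly6c2 cluster here. It was found in all 3 libraries, with 44 LPS cells and 7 and 6 cells of control replicates 1 and 2. Its make-up differed between libraries. Ly6c2 stood at 1863 CPM with LPS, against 227 and 124 CPM in control replicates 1 and 2. C1qa, a macrophage marker, stood at 797 CPM in 18 of the 44 LPS cells, against 0 and 334 CPM. The cluster held 189 Cd274 UMIs in 33 of the 44 LPS cells, against 0 in either control. Scaled to the UMIs other than haemoglobin and Gm42418, called corrected CPM from here on, the LPS level was 210 (95% Poisson interval 181 to 242), and the intervals of the controls reached up to 48.6 and 45.9. The other LPS cells of the class lay mostly in clusters led by Ccl5, and the other control cells in clusters led by C1qa and MHC class II genes. Fibroblast-like cells had 61 UMIs with LPS (72.6 CPM), against 0 and 1 in control replicates 1 and 2, a ratio of 34.6 (5.97 to 1387) with an edgeR adjusted p of 6.63e-05. All 211 LPS fibroblast-like cells lay in clusters led by Saa3 and Lcn2, with no control cell, and the 25 and 76 control cells in clusters led by Pi16 and Clec3b. With 3 or fewer control UMIs the fitted log2 values depend on the prior count, and without control replicate 2 they moved to 8.09 in macrophage- or monocyte-like and 6.1 in fibroblast-like cells, against 6.22 and 4.94 with it.

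T, NK or innate lymphoid-like cells had 27 Cd274 UMIs (101 CPM) with LPS, against 0 in control replicate 1 and 34 in control replicate 2 (30.1 CPM). The log2 fold change was 2.22 ± 0.63 (edgeR adjusted p = 0.0111), and 5.37 without control replicate 2. Cd274 entered the test of this class only through the LPS library, so only a rise could be found. The adjusted p was 0.0514 when cells over 10% mitochondrial UMIs were left out. In control replicate 2, 20 of the 34 UMIs came from 11 of 34 cells in a cluster led by T cell receptor genes with Lef1 and Ikzf2, which contained no LPS cell. The same cluster held 12 Pdcd1lg2 UMIs in control replicate 2 and 4 in control replicate 1.

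Cd274 was also counted in LPS barcodes that should lack it. Erythroid-like barcodes, which are rich in genes of red blood cell precursors, held 71 Cd274 UMIs in 66 of 736 barcodes with LPS and 0 in 6 and 217 barcodes of control replicates 1 and 2. Haemoglobin fills most of such a barcode, so levels are compared here in corrected CPM. On that scale, LPS Cd274 levels were 166 in macrophage- or monocyte-like cells (146 to 188), 142 in endothelial-like cells (124 to 161), 98.8 in fibroblast-like cells (75.6 to 127) and 114 in T, NK or innate lymphoid-like cells (75.2 to 166), against 130 in erythroid-like barcodes (101 to 164) and 165 in Gm42418-rich barcodes (150 to 181). The levels of the 4 tested classes therefore did not exceed both of these backgrounds. When each cell was thinned to 300 such UMIs, a Cd274 UMI was found in 3.72% of macrophage- or monocyte-like, 2.29% of endothelial-like and 3.79% of fibroblast-like LPS cells, against 4.35% of erythroid-like and 4.66% of Gm42418-rich LPS barcodes. The class shares rest on 14, 5 and 8 cells, with intervals of 2.05 to 6.17%, 0.749 to 5.27% and 1.65 to 7.33%. They overlap those of erythroid-like (2.99 to 6.08%) and Gm42418-rich barcodes (3.96 to 5.44%). By these shares, Cd274 in these 3 classes as a whole was not above the level in either kind of barcode. Gm42418-rich barcodes have no class, and whether they hold Cd274 of their own was not tested. Without thinning the shares were 20.2%, 31.2% and 18.5% in the 3 classes and 8.97% in erythroid-like barcodes, at median depths of 2140, 4340, 2271 and 8401 UMIs.

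The share of Cd274 among Cd274 and Cd200 UMIs, which also moves with a class's own Cd200, differed between classes. It was 13.0% in erythroid-like LPS barcodes (exact binomial interval 10.3 to 16.1) and 13.2% in Gm42418-rich barcodes (12.1 to 14.3). It was 50.3% in macrophage- or monocyte-like cells (45.8 to 54.8). Within that class it was 88.3% in the 44 LPS cells of the shared Ly6c2 cluster (83.2 to 92.3), which held 189 of the 246 Cd274 UMIs. But it was 14.8% in the cluster with 232 of the 376 LPS cells (9.95 to 20.7), near the background. In a cluster of 78 it was 32.4% (21.8 to 44.5). It was 31.9% in migratory dendritic-like cells (25.7 to 38.6) and 46.6% in T, NK or innate lymphoid-like cells (33.3 to 60.1). In fibroblast-like cells it was 16.2% (12.6 to 20.3) and in mesothelial-like cells 16.4% (10.8 to 23.5), neither apart from the background, and in endothelial-like cells 9.21% (8.09 to 10.4), below it. In the migratory dendritic-like cells the level of 467 corrected CPM (363 to 592) lay above both backgrounds.

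**Figure D4:**
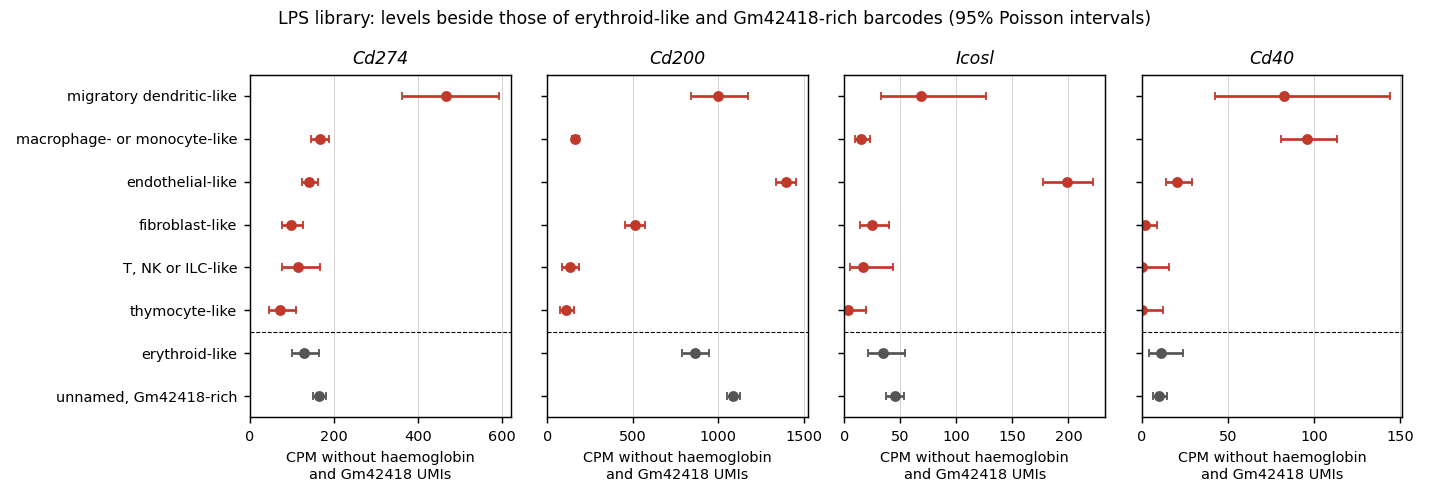
Levels of 4 genes in the LPS library in corrected CPM (scaled to UMIs other than haemoglobin and Gm42418), with 95% Poisson intervals that cover counting error only. Red points are named classes and grey points below the dashed line are erythroid-like and Gm42418-rich barcodes. Cd274 and Cd200 of several classes lie at or left of the grey points, whereas Icosl of endothelial-like cells and Cd40 of macrophage- or monocyte-like cells lie right of them.

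Pdcd1lg2, the gene for PD-L2, did not follow its neighbour. It gave 24 UMIs in the LPS library, against 4 and 25 in control replicates 1 and 2. Macrophage- or monocyte-like and fibroblast-like cells held 0 UMIs in all 3 libraries and endothelial-like cells 1 UMI, in the LPS library, so no fold was formed. Besides the migratory dendritic-like cells, T, NK or innate lymphoid-like cells held 5 UMIs with LPS and 4 and 14 in control replicates 1 and 2. These are 18.7 CPM with LPS, against 30.4 and 12.4 CPM, so that the LPS value lay between the controls.

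Cd40 rose in macrophage- or monocyte-like cells. They had 142 UMIs (76.9 CPM) with LPS, against 3 UMIs (14.8 CPM) in control replicate 1 and 12 UMIs (15 CPM) in control replicate 2, so the controls lay close together and below the LPS value. The log2 fold change was 2.55 ± 0.55 (edgeR adjusted p = 0.0337). The call was lost with RLE size factors (adjusted p = 0.0902), with the migratory dendritic-like cells added (0.0683) and with DESeq2 (0.924), while the fitted value was 2.53, 2.54 and 2.50 under these. Of the 142 UMIs, 83 came from 21 of 78 cells of a cluster led by Ccl5 that was found in the LPS library only. The shared Ly6c2 cluster had 32 with LPS and 1 in each control, or 33.6 CPM with LPS, against 12.6 and 12.4 CPM.

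Endothelial-like cells had 33 Cd40 UMIs (17.8 CPM) with LPS, against 3 (12.0 CPM) and 15 (18.5 CPM) in control replicates 1 and 2. The LPS value lay between the controls in CPM, but above both with the TMM factors of the test (19.3, against 12.3 and 17.4). The log2 fold change of 0.29 ± 0.71 did not pass (edgeR adjusted p = 0.877). The response in endothelial-like minus that in macrophage- or monocyte-like cells was -2.34 ± 0.84 with an edgeR adjusted p of 0.346. Cd40 stood at 96.0 corrected CPM in macrophage- or monocyte-like LPS cells (80.9 to 113), against 10.9 in erythroid-like barcodes (4.02 to 23.8), so its level there exceeded the background.

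The B7 ligands and Cd83 did not pass in macrophage- or monocyte-like cells. Cd80 had 32 UMIs (17.3 CPM) with LPS, against 0 in control replicate 1 and 7 (8.74 CPM) in control replicate 2, and a log2 fold change of 1.66 ± 1.11 (edgeR adjusted p = 0.690). Of the 32 UMIs, 21 came from the shared Ly6c2 cluster, which held 0 and 1 in control replicates 1 and 2. These are 22.1 CPM with LPS, against 0 and 12.4 CPM. Neutrophil-like cells of the LPS library held a further 16 Cd80 UMIs in 10 of 35 cells (42.4 CPM, 24.2 to 68.8), with 3 and 1 such cells in the controls.

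Cd86 had 102 UMIs (55.2 CPM) with LPS, against 11 (54.1 CPM) and 100 (125 CPM) in control replicates 1 and 2. The LPS value lay between the controls in CPM, but just below both with the TMM factors of the test (59.4, against 59.9 and 110). The log2 fold change of -0.59 ± 0.56 (edgeR adjusted p = 0.800) turned to 0.10 with the migratory dendritic-like cells added. In control replicate 2, 63 of the 100 UMIs came from 27 cells of a cluster led by C1qa, Mmp12 and MHC class II genes. That cluster held 1 cell of control replicate 1 and none with LPS. In the shared Ly6c2 cluster Cd86 stood at 46.2 CPM with LPS, between the 25.2 and 74.2 CPM of control replicates 1 and 2.

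Cd83 had 22 UMIs (11.9 CPM) with LPS, against 5 (24.6 CPM) and 63 (78.7 CPM) in control replicates 1 and 2. The LPS value lay below both controls. The log2 fold change was -2.06 ± 0.64 and did not pass (edgeR adjusted p = 0.173). It passed without haemoglobin genes and Gm42418 (-2.08, adjusted p = 0.0232), with cells taken by marker gates (-2.30, 0.0106) and at no more than 10% mitochondrial UMIs (-2.24, 0.00439), and was -1.06 without control replicate 2. The cluster led by C1qa and Mmp12 held 50 of the 63 UMIs of control replicate 2. B-like cells had 12 Cd83 UMIs in 18 cells with LPS, against 1 in 6 cells and 11 in 18 cells of control replicates 1 and 2. They had 23 Cd86 UMIs with LPS (105 CPM, 66.9 to 158), against 1 and 7 (15.2 and 46.3 CPM), and were too few to test. Of the 18 LPS cells, 17 lay in a cluster without control cells.

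Icosl, the ligand of ICOS, rose in endothelial-like cells. They had 317 UMIs (171 CPM) with LPS, against 19 UMIs (76.0 CPM) in control replicate 1 and 24 UMIs (29.6 CPM) in control replicate 2, so the LPS value lay above both. The log2 fold change was 2.00 ± 0.50 (edgeR adjusted p = 0.00148). It was 2.70 without control replicate 1 and 1.25 without control replicate 2, and DESeq2 gave an adjusted p of 0.216. It was 1.67 among cells with at least 3000 UMIs, an alternative tried because the classes differed in depth. Endothelial-like cells held 317 of the 540 Icosl UMIs of all filtered LPS barcodes.

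In macrophage- or monocyte-like cells Icosl had 22 UMIs (11.9 CPM) with LPS, against 2 (9.84 CPM) and 24 (30.0 CPM) in control replicates 1 and 2, with a log2 fold change of -0.73 ± 0.80 (edgeR adjusted p = 0.840) that was 0.23 without control replicate 2. The response in endothelial-like cells exceeded that in macrophage- or monocyte-like cells by 2.99 ± 0.78 (edgeR adjusted p = 0.0364). Of 10372 genes 0.222% had a difference past the threshold in this direction and 0.222% in the other. The adjusted p was 0.0724 with no filter on low counts. Icosl stood at 199 corrected CPM in endothelial-like LPS cells (177 to 222), against 34.7 in erythroid-like barcodes (20.9 to 54.2) and 44.7 in Gm42418-rich barcodes (37.3 to 53.3). When thinned to 300 such UMIs, 7.34% of endothelial-like LPS cells had an Icosl UMI (4.25 to 11.6), against 1.36% of erythroid-like barcodes (0.653 to 2.48). An endothelial-like cluster found in all 3 libraries, with 23 LPS cells and 4 and 10 cells of control replicates 1 and 2, held 90 Icosl UMIs with LPS, against 5 and 0. In corrected CPM these are 181 with LPS (146 to 223), against 183 in control replicate 1 (59.4 to 427) and 0 in control replicate 2 (up to 79.2), so within this cluster the LPS level lay close to that of control replicate 1. A cluster of control cells with Cldn5 as its leading gene, 7 of control replicate 1 and 26 of control replicate 2, stood at 171 (85.2 to 305) and 84.1 (50.7 to 131) corrected CPM. The other endothelial-like clusters were of LPS cells or of control cells alone, and 45 of 64 and 165 of 219 endothelial-like cells of control replicates 1 and 2 belonged to 1 shallow cluster in which smooth muscle markers scored next.

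Tnfrsf9, the gene for 4-1BB, rose in endothelial-like and lymphoid-like cells. Endothelial-like cells had 41 UMIs in 16 of 218 cells (22.1 CPM), against 0 in the 64 and 219 cells of control replicates 1 and 2. With a floor of 3 UMIs over both controls, the LPS level was 8.83 times that floor (edgeR adjusted p = 0.00250). This takes the LPS count as exact, so it is no lower limit. A cluster with Ccl2, Cxcl10 and Csf3 among its leading genes that contained LPS cells only held 26 of the 41 UMIs in 7 of 43 cells. Tnfrsf9 stood at 25.7 corrected CPM in endothelial-like LPS cells (18.4 to 34.8), against 10.9 in erythroid-like (4.02 to 23.8) and 16.0 in Gm42418-rich barcodes (11.7 to 21.4), so these intervals overlap. In macrophage- or monocyte-like cells 12 LPS cells had 1 UMI each, against 0 in both controls, at 8.11 corrected CPM, not above either background.

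In T, NK or innate lymphoid-like cells Tnfrsf9 had 29 UMIs (108 CPM) with LPS, against 1 (7.59 CPM) and 29 (25.7 CPM) in control replicates 1 and 2. The LPS value lay above both controls, with a log2 fold change of 2.43 ± 0.63 (edgeR adjusted p = 0.00325), and 3.45 without control replicate 2. Tnfrsf9 entered the test of this class only through the LPS library, so only a rise could be found. All 35 LPS cells of this class belonged to 1 cluster, led by Gzma and Nkg7, genes of cytotoxic granules. Most control cells lay in other clusters, with 3 of 22 and 20 of 184 in that one for control replicates 1 and 2. Within it Tnfrsf9 had 29 UMIs with LPS, against 0 and 1.

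Ctla4, the inhibitory receptor for Cd80 and Cd86, rose in T, NK or innate lymphoid-like cells. They had 53 UMIs in 15 of 35 cells (198 CPM) with LPS, against 0 in 22 cells of control replicate 1 and 2 UMIs in 184 cells of control replicate 2 (1.77 CPM). The ratio was 138 (95% counting interval 36.2 to 1165), with an edgeR adjusted p of 4.29e-19. Within the cluster led by Gzma and Nkg7, Ctla4 had 53 UMIs with LPS, against 0 in both controls. Foxp3, the defining factor of regulatory T cells, was detected in 2 of the 35 LPS cells, both with Ctla4, so 13 of the 15 Ctla4-positive cells had no Foxp3 UMI. Foxp3 gave only 5 UMIs in these 35 cells, so a count of 0 does not show that a cell lacked it.

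Other lymphocytes of the LPS library carried Ctla4 too. Thymocyte-like cells had 22 UMIs in 15 of 71 cells with LPS (59.9 CPM, 37.5 to 90.7), against 2 in 142 and 24 in 1504 cells of control replicates 1 and 2 (2.09 and 2.75 CPM). B-like cells had 22 UMIs in 6 of 18 cells with LPS (101 CPM, 63.2 to 153), against 0 in 6 and 1 in 18 cells of control replicates 1 and 2. All 6 of these LPS cells also had Cd79a, a subunit of the B cell receptor, and none had Siglech, a marker of plasmacytoid dendritic cells that was found in 3 other cells of the class. Neither class was tested, and LPS and control cells lay mostly in different clusters. Of the 71 LPS thymocyte-like cells, 60 lay in a cluster with 2 control cells. Of the 18 LPS B-like cells, 17 lay in a cluster without control cells. In it plasmacytoid dendritic markers scored next (4.19, against 5.44 for B cell markers). All control B-like cells lay in another cluster, with 1 LPS cell. Erythroid-like barcodes held 0 Ctla4 UMIs in all 3 libraries and the 3260 Gm42418-rich barcodes held 2, so the background of this gene was near 0.

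Cd200 rose in endothelial-like and fibroblast-like cells. Endothelial-like cells had 2228 UMIs (1199 CPM) with LPS, against 69 (276 CPM) and 380 (469 CPM) in control replicates 1 and 2, and the LPS value lay above both. The log2 fold change was 1.83 ± 0.49 (edgeR adjusted p = 0.00374, DESeq2 adjusted p = 0.00604), with 1.54 without control replicate 1 and 2.20 without control replicate 2. Fibroblast-like cells had 316 UMIs (376 CPM) with LPS, against 4 (57.5 CPM) and 52 (188 CPM), a log2 fold change of 1.85 ± 0.46 (edgeR adjusted p = 0.00106). It was 3.03 without control replicate 2, and DESeq2 gave an adjusted p of 0.206.

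Cd200 had a high background. LPS levels were 1396 corrected CPM in endothelial-like cells (1338 to 1455) and 512 in fibroblast-like cells (457 to 571), against 867 in erythroid-like (791 to 949) and 1088 in Gm42418-rich barcodes (1050 to 1127). Endothelial-like cells lay above both backgrounds and fibroblast-like cells below both. In control replicate 2 erythroid-like barcodes stood at 545 corrected CPM, against 483 in endothelial-like cells. Thinned to 300 such UMIs, 28.4% of endothelial-like LPS cells had a Cd200 UMI (22.6 to 34.9), against 22.1% of erythroid-like (19.2 to 25.3) and 27.7% of Gm42418-rich barcodes, so the share in endothelial-like cells did not exceed the background beyond counting error. The part of free RNA in the test results of Cd200 and Cd274 was not tested.

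In macrophage- or monocyte-like cells Cd200 had 243 UMIs (132 CPM) with LPS, against 0 in control replicate 1 and 131 (164 CPM) in control replicate 2, and did not pass (0.74 ± 0.93, edgeR adjusted p = 0.874). The value was -0.93 without cells over 30% Gm42418 and -0.03 without control replicate 1. In T, NK or innate lymphoid-like cells it had 31 UMIs (116 CPM) with LPS, against 3 (22.8 CPM) and 145 (128 CPM), and did not pass either (0.41 ± 0.44, edgeR adjusted p = 0.784).

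A list of 53 other costimulatory and inhibitory genes, of which 52 were in the annotation, gives the setting. Whether its counts differ from the shares of all genes tested, given beside them, was not tested. In endothelial-like cells 2 of the 16 tested rose, where 5.71% of all genes rose. Ceacam1, an adhesion molecule that also inhibits T cells, had 304 UMIs with LPS, against 2 and 15 in control replicates 1 and 2 (3.58 ± 0.53, edgeR adjusted p = 2.88e-09). Pvr, the ligand of CD226 and TIGIT, had 82, against 6 and 10 (1.62 ± 0.56, edgeR adjusted p = 0.0391). In macrophage- or monocyte-like cells 0 of 22 passed with edgeR, where 1.63% of all genes rose and 0.442% fell. Of these 22, 2 had an unadjusted edgeR p under 0.05 and DESeq2 called 0. In fibroblast-like cells 2 of 8 rose, where 8.07% of all genes rose. They were the galectin genes Lgals3 (2.99 ± 0.60, edgeR adjusted p = 2.18e-05) and Lgals9 (1.43 ± 0.48, edgeR adjusted p = 0.0250). Lgals3 entered this test only through the LPS library.

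In T, NK or innate lymphoid-like cells 2 of the 24 listed genes rose and 3 fell, where 3.91% of all genes rose and 2.14% fell. Tnfrsf4 and Tnfrsf18, the genes for the costimulatory receptors OX40 and GITR, rose by log2 values of 2.57 ± 0.64 and 1.72 ± 0.44 (edgeR adjusted p = 0.00184 and 0.00281). Tnfrsf4 entered this test only through the LPS library. Cd27, a costimulatory receptor of naive T cells, Cd5, an inhibitor of T cell receptor signalling, and Cd24a changed by -1.87 ± 0.47, -1.88 ± 0.46 and -1.71 ± 0.54 (edgeR adjusted p = 0.00255, 0.00144 and 0.0318). The clusters of LPS and control cells in this class differed as given above.

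Most receptors and ligands named here that pair with the 10 genes gave low counts. CPM in this paragraph use the TMM factors of the test. An exception was Cd28, a receptor of Cd80 and Cd86, in T, NK or innate lymphoid-like cells. It had 62 UMIs with LPS, against 80 and 741 in control replicates 1 and 2 (257.8 CPM, against 679.6 and 655.5). It did not pass (-1.37 ± 0.47, edgeR adjusted p = 0.0606). In that class Icos had 26 UMIs with LPS, against 8 and 78 (108 CPM, against 68.0 and 69). Pdcd1, the gene for PD-1, had 17, against 10 and 36 (70.7 CPM, against 84.95 and 31.85). Cd200r1, the receptor of Cd200, had 15 UMIs in macrophage- or monocyte-like cells with LPS, against 3 and 10, and 4 in T, NK or innate lymphoid-like cells, against 0 and 17. Cd40lg, the ligand of Cd40, had 1 UMI with LPS, against 6 and 55. Tnfsf9, the ligand of 4-1BB, had 7 UMIs in endothelial-like cells with LPS, against 1 and 0 in control replicates 1 and 2, and 9 in macrophage- or monocyte-like cells, against 0 and 1.

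Across 21 points, each the level of a class with enough cells in 1 library, Cd86 and Cd83 varied together (Pearson's r = 0.937 on log2 of CPM plus 10). The points share libraries, depth and cell classes, so r is a description. The genes most like Cd86 by this measure were Cd68 (r = 0.967) and Adgre1 (0.964), both macrophage genes, and those most like Cd83 were Mmp13 (0.982) and Clec4n (0.975). Cd274 was most like Gbp7 (0.916), Cxcl10 (0.899), Irf7 (0.888), Ifit1 (0.888) and Gbp5 (0.887), genes induced by interferons. Icosl was most like Plxna2 (0.869) and Tgfa (0.853), Cd200 like Tm4sf1 (0.908) and Foxc1 (0.895), and Cd40 like Sdc3 (0.813). Tnfrsf9 was most like Gzmb (0.837) and Ctla4 like Phf11c (0.853). Pdcd1lg2 and Cd80, with 30 and 66 UMIs over these points, were under the minimum of 100 set for this measure.

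Genes met in the same cell mostly where cells were deep. Of 218 endothelial-like LPS cells 68 had Cd274 and 103 had Icosl, and 48 had both, at a median of 14508 UMIs against 4340 in the class. Of 376 macrophage- or monocyte-like LPS cells 76 had Cd274 and 59 Cd40, and 26 had both, at a median of 11903 UMIs against 2140. Cd80 and Cd86 met in 13 cells, which is 13 of the 20 with Cd80 and 13 of the 49 with Cd86, at a median of 21274 UMIs. In T, NK or innate lymphoid-like LPS cells, Ctla4 and Tnfrsf9 met in 3 cells, of 15 and 6.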

How the data were processed

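Single-cell RNA was measured with the 10x 3' v3 kit. The deposited matrices hold the authors' raw counts of UMIs. Per the submitters' processing notes, Cell Ranger 3.1, R 4.2.1, Seurat 4.2.0 and the build mm10 are named, and no rule for selecting barcodes. Gene positions are from GENCODE's annotation of GRCm38, and promoter windows from RefSeq (GRCm38.p6).

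Barcodes under 500 UMIs or under 300 genes, or over 15% mitochondrial UMIs, were dropped. No doublet caller was run, so doublets were not removed. Cells were clustered in a pair of steps (scanpy 1.11.5, 2000 variable genes, Leiden resolution 1.0, then 0.5 within each cluster of at least 40 cells) without the 10 genes, the related genes, and haemoglobin, mitochondrial, ribosomal and unnamed genes such as Gm42418. A cluster took the name of the class whose markers led by 1.5 on the log2 scale and by 0.5 over the next class, with at least 3 markers detected. This rule, the split of thymocyte-like cells by Rag1 in at least 10% of cells and a minimum of 10% haemoglobin for erythroid-like cells were set after seeing the data. These limits alone do not give every name. A cluster of 48 and 167 barcodes of control replicates 1 and 2 met those for erythroid-like cells but stayed without a class. So did another of 2 and 9. Unnamed barcodes of control replicate 2 held 2 Cd274 UMIs. Macrophage- or monocyte-like cells stand for the planned class of mononuclear phagocytes, without the migratory dendritic-like cells.

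UMIs were summed per library and class and tested with edgeR 4.0.16 (quasi-likelihood, TMM factors, filterByExpr, Benjamini-Hochberg over all genes tested, threshold 0.05). DESeq2 1.42.0, other size factors, filters, gates and depths and leaving out each control were alternatives. Shares and sums have exact 95% intervals that cover counting error only, and a count of 0 has a floor of 3 UMIs over a group. The 10 genes are all described, and related genes are named where they passed. Cd28, Icos, Pdcd1, Cd200r1, Cd40lg and Tnfsf9 were named after their values were seen. The genes, the related list and the tests were chosen with earlier results of these data known. Scripts were tested on simulated counts.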

Additional observations from a re-analysis of the deposited data

Results flagged for a closer look

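The LPS response of Icosl differed between cell classes, by 2.99 on the log2 scale in endothelial-like minus macrophage- or monocyte-like cells (SE 0.78, edgeR adjusted p = 0.0364 for the interaction). It was picked out because the difference itself passed the test.

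Barcodes without a class also carried signal. In the 3260 LPS barcodes with at least 40% Gm42418, which enter no comparison, Cd274 stood at 69.7 CPM, Icosl at 18.9 CPM and Cd200 at 460.3 CPM of all UMIs. They were picked out as signal in barcodes outside the comparisons. The controls had 9 such barcodes, all in control replicate 1, too few to show whether the level differed.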

How the results depend on the processing

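Counts of genes called moved by over 1.5 times with the processing. In endothelial-like cells DESeq2 called 141 genes higher and 122 lower, against 530 and 536 with edgeR, and 271 were lower at no more than 10% mitochondrial UMIs. In macrophage- or monocyte-like cells, where 144 were higher and 39 lower, the numbers higher were 280 at no more than 10% mitochondrial UMIs, 53 with DESeq2, 231 with marker gates, 279 with no filter on low counts, 60 with RLE factors and 269 without haemoglobin genes and Gm42418. The numbers lower were 183, 22, 149, 112, 9 and 155 under the same settings, 21 with migratory dendritic-like cells added and 144 without cells over 30% Gm42418. In fibroblast-like cells, with 422 higher and 268 lower, DESeq2 called 75 and 71 and marker gates gave 272 and 150. In T, NK or innate lymphoid-like cells, with 201 higher and 110 lower, DESeq2 called 19 and 6, marker gates gave 305 and 189, and 73 were lower at no more than 10% mitochondrial UMIs. For the difference between responses, with 23 either way, 15 higher and 12 lower were found with no filter and 13 lower with marker gates. The cause was not tested.

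Of the tested values of the 10 genes under the alternatives, 120 kept direction and side of the threshold, 8 lost and 3 gained a call, and 4 turned direction, none of them called. These were macrophage- or monocyte-like Cd86 (0.10 with dendritic-like cells added, against -0.59) and Cd200 (-0.93 without cells over 30% Gm42418, against 0.74), and, with marker gates, the difference between responses of Cd80 (0.56, against -2.18) and Cd86 (2.91, against -3.01). The cause was not tested. Adding dendritic-like cells, leaving out cells over 30% Gm42418 and the minimum of 3000 UMIs were chosen after seeing the data. Fibroblast-like cells at 10% mitochondrial UMIs, at 3000 UMIs or without cells over 30% Gm42418, and macrophage- or monocyte-like cells at 3000 UMIs had under 20 cells in a library and were not run. With 1 control left out no residual degree of freedom remains, so these values have no test. Of them 20 stayed within 1 SE and 16 moved, among them macrophage- or monocyte-like Icosl and Cd200, which turned direction without being called. No paired analysis was possible because the labels give the groups no shared replicate numbers.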
